A study of Arabidopsis thaliana with 6 samples.

Results

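ERF016, ERF017, ORA47 (also called ERF018), ERF019, ERF020, ERF021 and ERF022 are genes of the AP2/ERF family of plant transcription factors. These 7 genes, of 28775 in the count files, were taken by their gene identifiers and were selected on their read counts in these libraries, because several were much lower in the myc2 mutant than in the wild type. For these genes the difference between myc2 and Col-0 is therefore given as a description with no p-value, and the count of them that passed the threshold is given once, beside the share of all genes, with nothing read from it.

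RNA was sequenced from the shoots of Arabidopsis thaliana seedlings 2 weeks of age, which were kept at 22 °C in days of 16 h light and nights of 8 h. There were 3 libraries of the myc2 mutant and 3 of Col-0, the wild-type accession Columbia. The labels name no further allele and no treatment for either genotype, and they do not state which myc2 allele was used. The study describes its replicates as biological, and the labels do not say which plants or cultures each library came from. Errors and p-values below measure the spread between these libraries.

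MYC2, a transcription factor of the bHLH class, is a main regulator of the response to jasmonate, a hormone of wounding and defence. It binds the G-box, whose letters are CACGTG, and close variants of it, and JAZ repressor proteins hold it inactive until jasmonate is perceived. ERF-type transcription factors share 1 DNA-binding AP2 domain and are divided into DREB-type and ERF-type subfamilies. DREB proteins bind the dehydration-responsive element, and many of their genes are switched on quickly by cold, drought, wounding or touch. ORA47 is known as an early jasmonate-responsive gene, and its product raises the expression of jasmonate synthesis genes. ERF019 is known from overexpression in Arabidopsis to slow plant growth and senescence.

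The libraries held 25439397 to 26597891 counts in myc2 and 21165967 to 30604815 in Col-0. In the file headers the names begin with 1 prefix for the myc2 libraries, another for Col-0 replicates 1 and 2 and yet another for Col-0 replicate 3. These prefixes are taken here as sequencing runs, which the labels do not state. Genotype and run in this sense cannot be told apart between myc2 and Col-0. The MYC2 gene itself had 1822, 2007 and 1864 reads in the myc2 libraries, against 4808, 4085 and 5087 in the Col-0 libraries. Its level averaged 71.2 ± 2.26 CPM (counts scaled to a common library size) in myc2 and 192 ± 15.5 CPM in Col-0 (SD, n = 3 each), a log2 fold change of -1.43 ± 0.07 (SE; edgeR quasi-likelihood test, adjusted p = 2.94e-08). Reads of MYC2 thus remained in the mutant at 37.0% of the Col-0 level. The 6 shoot markers, among them RBCS1A and LHB1B1 of photosynthesis, summed to 41000 to 42600 CPM in myc2 and 43400 to 50400 CPM in Col-0. The 6 root markers summed to 0.0379 to 0.256 CPM in myc2 and 0.193 to 0.341 CPM in Col-0, with RSL4 at 0 in every library. The 5 flower and seed markers summed to 1.07 to 1.87 CPM in myc2 and 1.16 to 1.71 CPM in Col-0. Shoot markers were thus abundant and root markers near 0 in both genotypes, but 3 of the 6 shoot markers differed. LHB1B1 was higher in myc2, at 441 CPM in myc2 and 208 CPM in Col-0 (edgeR adjusted p = 2.64e-07), while RBCS1A (log2 fold change -0.24, edgeR adjusted p = 0.029) and CA1 (log2 fold change -0.20, edgeR adjusted p = 0.0247) were lower. The part of the marker differences in the results below was not tested.

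The 7 genes have compact gene models. Each has 1 exon and 1 annotated transcript in the RefSeq annotation of TAIR10.1, and 6 lie on chromosome 1 and 1 on chromosome 5. ORA47 (AT1G74930) spans chr1:28143851-28145058 on the forward strand. ERF016 (AT5G21960) spans chr5:7258037-7259568, ERF017 (AT1G19210) chr1:6626794-6627688 and ERF019 (AT1G22810) chr1:8074231-8075037, all on the reverse strand. ERF021 (AT1G71450) at chr1:26927012-26928056 and ERF020 (AT1G71520) at chr1:26938369-26939267 lie on the forward strand, 10312 bases apart. ERF022 (AT1G33760) spans chr1:12237547-12238710 on the forward strand. The annotation places 5 of them in DREB subfamily A-5, which has 15 annotated genes, and ERF021 and ERF022 in DREB subfamily A-4, which has 17.

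ORA47 and ERF017 share the longest identical stretch found between any of the 7 genes and another gene of the family, 52 bases within both coding sequences. It is shown because a read that lies wholly within it cannot be assigned to 1 of the genes. The study states a read length greater than this stretch.
ORA47, chr1:28144285-28144336, forward strand: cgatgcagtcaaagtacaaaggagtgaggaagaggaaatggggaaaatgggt
ERF017, chr1:6627460-6627511, reverse strand: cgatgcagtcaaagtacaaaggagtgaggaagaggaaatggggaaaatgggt
For ERF016 the longest shared run was 37 bases, with ERF017, and for the other 4 genes it was 21 to 24 bases.

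ORA47 was the most abundant of the 7 genes in both genotypes. It had 60, 85 and 83 reads in the myc2 libraries, against 1916, 1746 and 2433 in the Col-0 libraries, which is 2.27, 3.11 and 3.16 CPM in myc2 and 81.7, 84.1 and 83.7 CPM in Col-0. Every myc2 library lay far below every Col-0 library, and the Col-0 libraries were close to each other. The means were 2.85 ± 0.501 CPM in myc2 and 83.2 ± 1.29 CPM in Col-0 (SD, n = 3 each), a log2 fold change of -4.87 ± 0.11 (SE), or 29.1-fold lower in myc2. In whole seedling shoots, fewer cells that express a gene and less RNA of it per cell cannot be told apart.

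ERF016 had 10, 10 and 11 reads in the myc2 libraries, against 243, 201 and 317 in the Col-0 libraries. These are 0.379, 0.366 and 0.419 CPM in myc2 and 10.4, 9.69 and 10.9 CPM in Col-0. The groups did not overlap, and the libraries of each genotype varied little. The means were 0.388 ± 0.0278 CPM in myc2 and 10.3 ± 0.613 CPM in Col-0 (SD, n = 3 each), a log2 fold change of -4.72 ± 0.17 (SE), or 26.4-fold lower in myc2.

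ERF017 came close to disappearing from the myc2 libraries. It had 1, 3 and 3 reads in myc2, against 154, 149 and 242 in Col-0, which is 0.0379, 0.110 and 0.114 CPM in myc2 and 6.57, 7.18 and 8.33 CPM in Col-0. Every myc2 library lay far below every Col-0 library. The means were 0.0873 ± 0.0429 CPM in myc2 and 7.36 ± 0.893 CPM in Col-0 (SD, n = 3 each). The log2 fold change was -6.32 ± 0.28 (SE), or 80.0-fold lower in myc2, the second largest fall of the 18961 genes tested. With 7 reads in myc2 and 545 in Col-0, scaled for library size, the Col-0 level was 85.0 times the myc2 level, with a 95% counting interval of 41.0 to 212. Such intervals cover counting error only. The SE was derived from the F statistic of the test and spans less than this interval, so it understates the uncertainty of the fold.

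ERF019 was a gene of low level in both genotypes. It had 1 read in each myc2 library, against 15, 10 and 27 reads in the Col-0 libraries, which is 0.0379, 0.0366 and 0.0381 CPM in myc2 and 0.640, 0.482 and 0.929 CPM in Col-0. The groups did not overlap, but the Col-0 libraries spread more widely than for the 4 more abundant genes. The means were 0.0375 ± 0.000801 CPM in myc2 and 0.684 ± 0.227 CPM in Col-0 (SD, n = 3 each). With 3 reads in myc2 and 52 in Col-0, the Col-0 level was 18.9 times the myc2 level, with a 95% counting interval of 6.13 to 94.7. The fitted log2 fold change was -4.06 ± 0.57 (SE).

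ERF022, of subfamily A-4, had 15, 19 and 12 reads in the myc2 libraries, against 366, 345 and 419 in the Col-0 libraries. These are 0.568, 0.696 and 0.457 CPM in myc2 and 15.6, 16.6 and 14.4 CPM in Col-0. Here too every myc2 library lay below every Col-0 library. The means were 0.574 ± 0.119 CPM in myc2 and 15.6 ± 1.10 CPM in Col-0 (SD, n = 3 each), a log2 fold change of -4.74 ± 0.16 (SE), or 26.8-fold lower in myc2.

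ERF020 and ERF021 were barely detected and did not pass the filter on low counts. ERF020 had 1, 0 and 1 reads in myc2, against 0, 0 and 0 in Col-0, and a count of 0 over the 3 Col-0 libraries allows a level of up to 0.0410 CPM. ERF021 had 0, 2 and 1 reads in myc2, against 2, 1 and 1 in Col-0. No difference was detectable for either gene at this depth, and no fold is given.

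**Figure D1:**
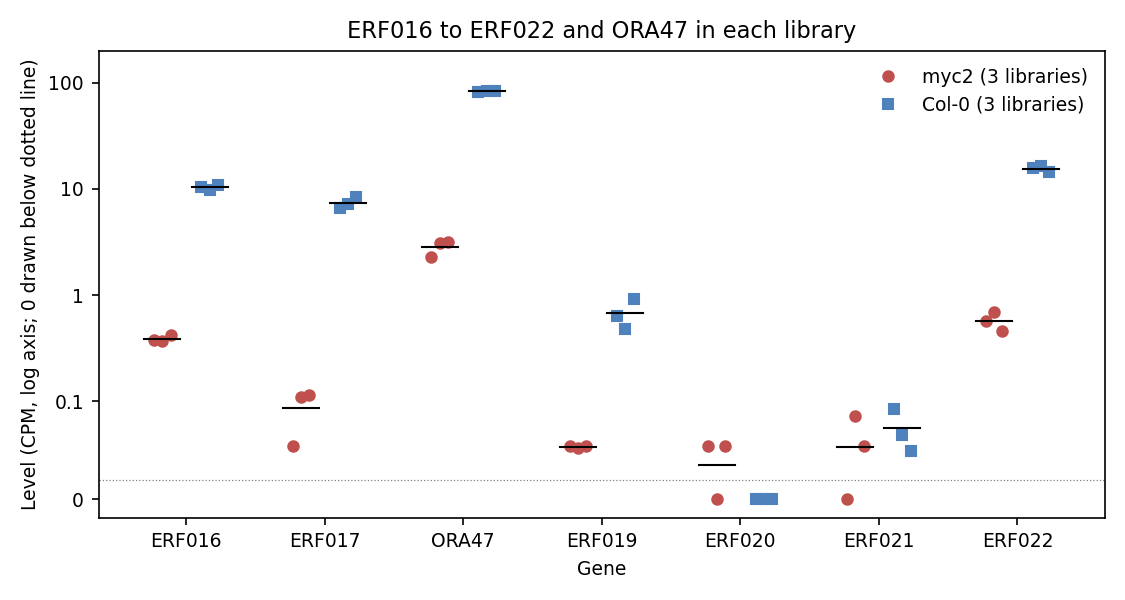
Level of each of the 7 genes in CPM on a log axis, with 1 point per library, myc2 as circles and Col-0 as squares, and black lines at the group means; values of 0 are drawn below the dotted line. ORA47 lies at 2.27 to 3.16 CPM in myc2 and 81.7 to 84.1 CPM in Col-0, and ERF020 and ERF021 lie near 0 in both.

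Of the 7 genes, 5 had an adjusted p under 0.05 and were lower in myc2 (edgeR), and in the same 5 every myc2 library lay below every Col-0 library. Over all genes tested, 18.7% were called lower and 17.6% higher, while 24.3% had every myc2 library below every Col-0 library and 25.4% had every myc2 library above. Since this contrast chose the genes, nothing is read from the count. A gene passed the filter where at least 3 libraries reached 0.392 CPM. ORA47 and ERF022 reached it in all 6 libraries, ERF016 in 1 myc2 library and 3 Col-0 libraries, and ERF017 and ERF019 in the 3 Col-0 libraries alone.

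The 5 tested genes are among the 24 genes called lower by at least 16-fold, 0.127% of the genes tested. The members were chosen for such falls, so nothing is read from their place in this list or from their ranks. ERF017 ranked 2, ORA47 11, ERF022 13, ERF016 14 and ERF019 22 by size of the fall. The place of ERF019 among them rests on 3 reads in myc2, and its log2 fold change missed the limit of -4 with limma-voom (-3.64) and without Col-0 replicate 3 (-3.74). In all, 9 of the 24 genes belong to the annotated family of DREB and ERF subfamilies, and 5 of these 9 are the chosen members. The other 4 come from the 69 tested genes of the family outside the members, among 18961 genes tested. They are ERF109, known for its response to wounding and reactive oxygen, and DDF1, CBF1 and CBF4 of the DREB1 group. The DREB1 group is known for activating cold and drought genes.

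**Figure D2:**
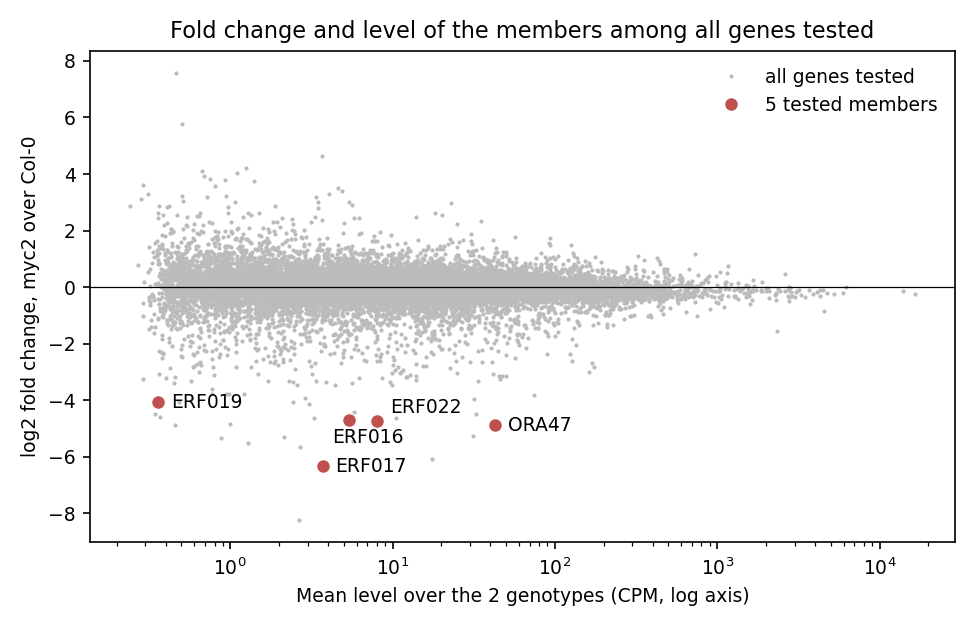
Log2 fold change of myc2 over Col-0 against the mean level in CPM (log axis) for the 18961 genes tested, as grey points, with the 5 tested members in red. The members lie at -6.32 to -4.06, at the low edge of the cloud, over a wide range of levels.

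Levels of different genes were compared per kilobase of exon. In myc2 the order was ORA47 with 2.36 ± 0.414, ERF022 with 0.493 ± 0.102, ERF016 with 0.253 ± 0.0181, ERF017 with 0.0976 ± 0.0479 and ERF019 with 0.0465 ± 0.000992 CPM per kb (SD, n = 3 each). In Col-0 it was ORA47 with 68.9 ± 1.07, ERF022 with 13.4 ± 0.949, ERF017 with 8.22 ± 0.998, ERF016 with 6.74 ± 0.400 and ERF019 with 0.847 ± 0.281 CPM per kb. By this measure ERF016 and ERF017 changed places between the genotypes, which rests on their annotated exon lengths of 1532 and 895 bases. In CPM, ERF016 was above ERF017 in both genotypes, at 10.3 and 7.36 in Col-0 and 0.388 and 0.0873 in myc2. The myc2 level of ERF017 rests on 7 reads. Per kilobase, their Col-0 ranges came close, 6.32 to 7.12 CPM per kb for ERF016 and 7.34 to 9.31 for ERF017. In myc2 ERF017 and ERF019 overlapped in range, at 0.0423 to 0.128 and 0.0454 to 0.0472 CPM per kb. Among the 18867 tested genes with an annotated length, the Col-0 level of ORA47 was higher than that of 91.3% of these genes, and that of ERF022 was higher than that of 62.9%.

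Summed over the 7 genes, the level was 3.33, 4.39 and 4.27 CPM in the myc2 libraries, against 115, 118 and 118 CPM in the Col-0 libraries. ORA47 made up 68.2%, 70.8% and 74.1% of their reads in myc2, against 71.1%, 71.2% and 70.7% in Col-0. The share that ORA47 held was therefore similar in both genotypes while the sum differed widely.

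Within Col-0, replicate 3 was compared with replicates 1 and 2, whose names begin with another prefix. Since replicate 3 is the only library with its prefix, an effect of the run is not separable from a peculiarity of that library. The differences below are therefore not assigned to a run. Between Col-0 replicate 3 and Col-0 replicates 1 and 2, 15.6% of all genes were called different, and 6.3% were called higher in replicate 3 (edgeR, 3-group fit, with the spread of the lone library taken from the other groups). All Col-0 libraries entered the choice of the members, so the members' values here are a description. The differences of replicate 3 from replicates 1 and 2 were 0.01 ± 0.09 on the log2 scale for ORA47 (SE), 0.12 ± 0.15 for ERF016 and -0.16 ± 0.14 for ERF022. They were 0.28 ± 0.18 for ERF017 and 0.71 ± 0.46 for ERF019. Against Col-0 replicates 1 and 2 the log2 fold change in myc2 was -4.86 for ORA47, -4.68 for ERF016, -6.22 for ERF017, -3.75 for ERF019 and -4.80 for ERF022. Against Col-0 replicate 3 it was -4.87 for ORA47, -4.80 for ERF016, -6.50 for ERF017, -4.46 for ERF019 and -4.64 for ERF022. The run of the myc2 libraries held no Col-0 library, so these values do not separate run from genotype.

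The rest of subfamily A-5 did not share the fall as a group. Of its other 10 genes 9 were tested, of which 3 were called lower in myc2, 3 higher and 3 neither (edgeR), with a median log2 fold change of -0.27 beside 0.01 over all genes tested. Over all genes, 36.3% were called in either direction. ERF012 had 3.79, 3.73 and 4.04 CPM in the myc2 libraries, against 24.4, 29.3 and 27.5 CPM in the Col-0 libraries, and fell by 2.81 ± 0.11 on the log2 scale (SE; edgeR adjusted p = 4.55e-09). ERF013 averaged 0.425 CPM in myc2 and 4.71 CPM in Col-0 and fell by 3.47 ± 0.24 (SE; edgeR adjusted p = 4.39e-07). ERF008 fell by 0.70 ± 0.13 (SE; edgeR adjusted p = 0.00104). ERF014 was not called, at 1.26 CPM in myc2 and 1.55 CPM in Col-0 (edgeR adjusted p = 0.392). The 3 genes called higher, named after their values were seen, were RAP2.9 with a log2 fold change of 2.55, ERF010 with 0.50 and RAP2.1, a DREB-type repressor, with 0.45. The count of genes called higher was 1 when any of Col-0 replicate 2 or the 3 myc2 libraries was left out.

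Outside ERF022, subfamily A-4 held genes called in both directions. Of the other 14 genes in the files 12 were tested, of which 3 were called lower in myc2, 3 higher and 6 neither (edgeR), with a median log2 fold change of -0.03. Over all genes tested 18.7% were called lower and 17.6% higher, which is the background for each count in this paragraph. AT5G52020 fell by 3.61 ± 0.40 (SE; edgeR adjusted p = 3.07e-05), with 0.112 CPM in myc2 and 1.43 CPM in Col-0. ESE2 fell by 1.14 ± 0.21 (SE; edgeR adjusted p = 0.00146). AT2G44940 rose by 1.57 ± 0.10 (SE; edgeR adjusted p = 2.92e-07), to 17.9 CPM in myc2. AT4G16750 was at 3.96 CPM in myc2 and 3.85 CPM in Col-0 (edgeR adjusted p = 0.868). In the DREB1 group, subfamily A-1, all 5 tested of 6 genes were called lower, with a median log2 fold change of -4.05. CBF2 had 2.70 CPM in myc2 and 23.1 CPM in Col-0 (edgeR adjusted p = 2.61e-09), DDF1 had 0.0994 CPM in myc2 and 5.30 CPM in Col-0 (edgeR adjusted p = 1.56e-08), and CBF1 had 0.249 CPM in myc2 and 6.35 CPM in Col-0 (edgeR adjusted p = 4.6e-08). Across the family without the 7 members, 69 of 110 genes in the files were tested, of which 29 were called lower and 17 higher, with a median of -0.36. Without myc2 replicate 3, 29 were called lower and 11 higher.

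**Figure D3:**
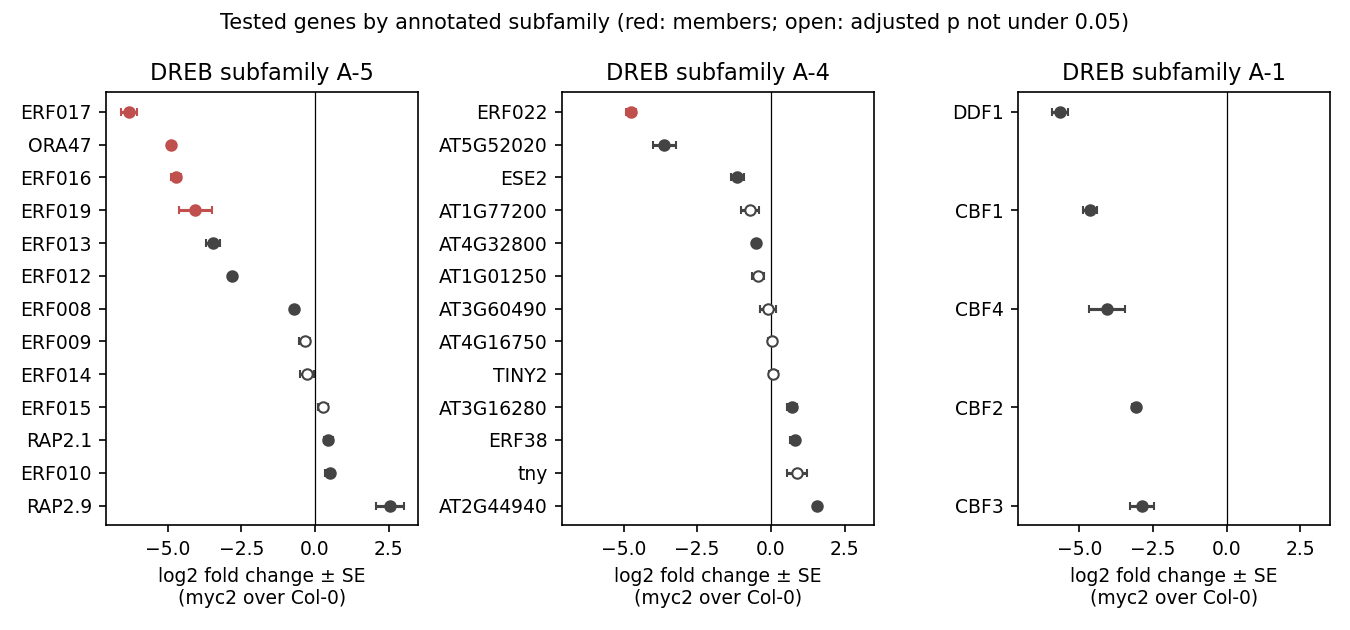
Log2 fold change of myc2 over Col-0 with its SE (bars) for the tested genes of DREB subfamilies A-5, A-4 and A-1, members in red, with open points where the adjusted p was not under 0.05. The members stand at -6.32 to -4.06, while the other A-5 genes run up to 2.55 and the 5 A-1 genes all lie at or below -2.87.

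Genes of jasmonate synthesis, the pathway that the ORA47 protein is known to raise, included 11 that were lower in myc2. Of 17 listed genes 16 were tested, of which 11 were called lower, 1 higher and 4 neither (edgeR), with a median log2 fold change of -0.57, against 18.7% lower and 17.6% higher over all genes tested. This list, too, was chosen with earlier results of these data known. LOX4, a lipoxygenase that starts the pathway, had 8.79 CPM in myc2 and 74.6 CPM in Col-0 and fell by 3.08 ± 0.07 (SE; edgeR adjusted p = 8.32e-11). OPCL1, a ligase that prepares the precursor for shortening in peroxisomes, had 25.1 CPM in myc2 and 92.3 CPM in Col-0 (edgeR adjusted p = 2.75e-09). LOX3, another lipoxygenase, had 9.44 CPM in myc2 and 38.9 CPM in Col-0 (edgeR adjusted p = 5.36e-09). ACX5, an acyl-CoA oxidase, was at 15.6 CPM in myc2 and 15.9 CPM in Col-0 (edgeR adjusted p = 0.862). The falls of these enzymes were smaller than that of ORA47, and whether they depend on it was not tested.

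A list of 16 early stress regulators, genes known to respond quickly to touch, wounding or cold, was called lower in myc2 throughout, 16 of 16 (edgeR). Their median log2 fold change was -1.92, and over all genes tested 18.7% were called lower and 17.6% higher. WRKY40, a transcription factor, had 3.84 CPM in myc2 and 59.9 CPM in Col-0 (edgeR adjusted p = 8.13e-11). TCH4, a touch-induced cell wall enzyme, had 45.6 CPM in myc2 and 291 CPM in Col-0 (edgeR adjusted p = 8.13e-11). ERF109 had 0.498 CPM in myc2 and 34.3 CPM in Col-0 (edgeR adjusted p = 2.75e-09). The list was chosen with earlier results of these data known, so its direction is not independent evidence, and 5 of its genes, ERF5, ERF6, ERF104, ERF105 and ERF109, also count in the family above. In these 16 genes, Col-0 replicate 3 differed from replicates 1 and 2 by log2 values of -0.69 to 0.42, with a median of -0.03.

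The genes beside the members did not share their fall. The 2 protein-coding genes on each side of the 7 members make 28 genes, of which 21 were tested, 4 were called lower in myc2, 2 higher and 15 neither (edgeR). Beside the 5 tested members alone there were 20 genes. Of these 16 were tested, 4 were called lower, 2 higher and 10 neither. Over all genes tested, 18.7% were called lower and 17.6% higher. The log2 fold changes of the 21 ran from -0.88 to 0.54, with a median of -0.04. AT1G22800 overlaps ERF019 on the opposite strand and had 13.9 CPM in myc2 and 18.2 CPM in Col-0, a log2 fold change of -0.39 (edgeR adjusted p = 0.00845). ARF19, an auxin response factor gene, overlaps the start of ERF017 by 6 bases on the same strand. Its log2 fold change was -0.27 ± 0.11 (SE; edgeR adjusted p = 0.0641). AT1G74929, annotated inside ORA47 on the opposite strand, had 0 reads in myc2 and 0, 2 and 2 reads in Col-0. AT1G05767, a gene of long non-coding RNA, also overlaps ERF019, and AT1G71460 overlaps ERF021, both on the opposite strand. No source states whether counting used strand, so reads of such overlapping genes cannot be told apart.

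**Figure D4:**
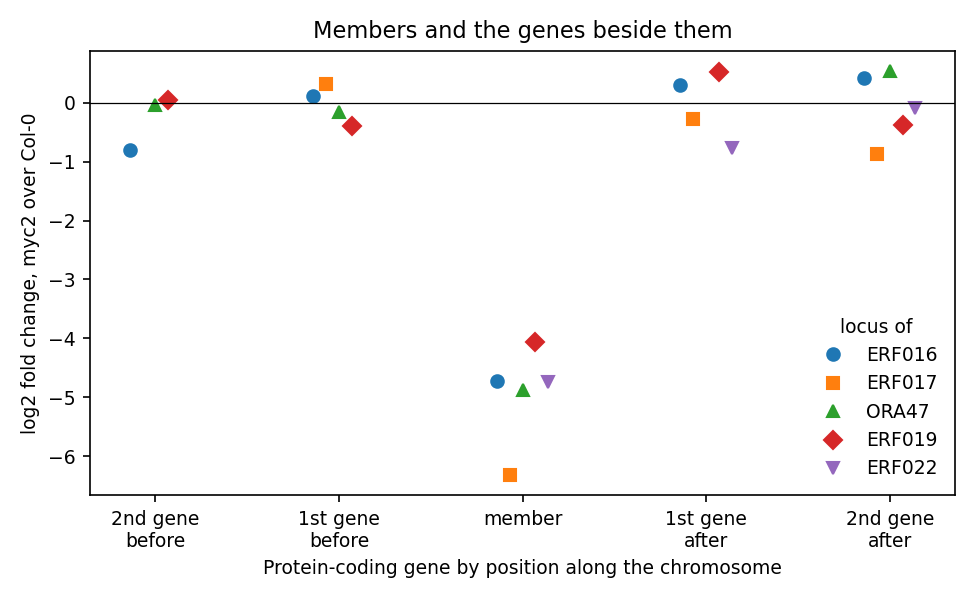
Log2 fold change of myc2 over Col-0 for the 5 tested members and the tested protein-coding genes among the 2 on each side, ordered along the chromosome, with 1 symbol per locus. The members lie at -6.32 to -4.06 and the genes beside them between -0.88 and 0.54.

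The upstream sequences of the 7 genes have no motif in common among 6 searched on both strands within 300 and 1000 bases of the annotated start. The TATA box, TATAAA, was also searched, and it was found in the 1000 bases before all 7 genes and in 83.6% of promoters. The 6 motifs were the G-box CACGTG, its variant CACATG, the dehydration-responsive core CCGAC, the GCC-box GCCGCC, the W-box form TTGACC and the core CGCG. In 300 bases, ERF017 held the G-box at 2 places and ERF020 at 1. That is 2 of 7 genes, against 0 of the other 10 A-5 genes, 14.5% of the other 110 family genes and 7.09% of 27443 promoters. In 1000 bases ERF017, ERF019 and ERF020 held it, against 0 of the other 10 A-5 genes, 26.4% of the other 110 family genes and 14.8% of promoters. The variant CACATG lay within 1000 bases of ERF016, ERF019 and ERF022, against 37.7% of promoters. The W-box form lay there in 4 of the 7 genes, ERF016, ERF017, ERF019 and ERF022, against 35.3% of promoters. The core CCGAC lay there in ERF021 and ERF022 (37.4% of promoters), CGCG in ERF017 and ERF021 (32.2%), and the GCC-box in none (8.44%). The 4 G-box sites and the variant site of ERF016 are shown because MYC2 is known to bind these letters. The variant sites of ERF019 and ERF022 are not shown. Each site is given as 30 bases of the gene's strand in TAIR10.1 (RefSeq) with the motif in capitals.
ERF017, chr1:6627920-6627949, reverse strand: taaagaaagaatCACGTGaaaaacaaggac
ERF017, chr1:6627814-6627843, reverse strand: agtaacatccgcCACGTGtccattcccctg
ERF019, chr1:8075656-8075685, reverse strand: ctttctttatccCACGTGgtttaaccatcg
ERF020, chr1:26938133-26938162, forward strand: ttcaagtttcagCACGTGatgtcgtgatgg
ERF016, chr5:7259833-7259862, reverse strand: atcaaacttctgCACATGgcctatgacggt
Both ERF017 sites lie inside the transcribed ARF19 gene. ERF020 held a G-box and had 0 reads in Col-0.

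ORA47 held none of the 6 motifs within 1000 bases of its start. Its 300 bases before the start, chr1:28143551-28143850 on the forward strand, are shown because it is the most abundant of the 7 genes. The capitals mark the letters TATAAA, read here on the opposite strand, which 52.9% of promoters hold in a window of this length.
ORA47: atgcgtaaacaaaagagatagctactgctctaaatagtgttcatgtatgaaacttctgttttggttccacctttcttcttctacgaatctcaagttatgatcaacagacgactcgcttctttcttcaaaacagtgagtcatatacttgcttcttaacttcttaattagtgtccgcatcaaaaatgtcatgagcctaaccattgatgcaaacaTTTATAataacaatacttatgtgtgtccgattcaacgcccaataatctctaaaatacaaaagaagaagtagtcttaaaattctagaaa
A match is a description of letters and not a binding site, and the absence of a match says only that these letters are not in this window.

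**Figure D5:**
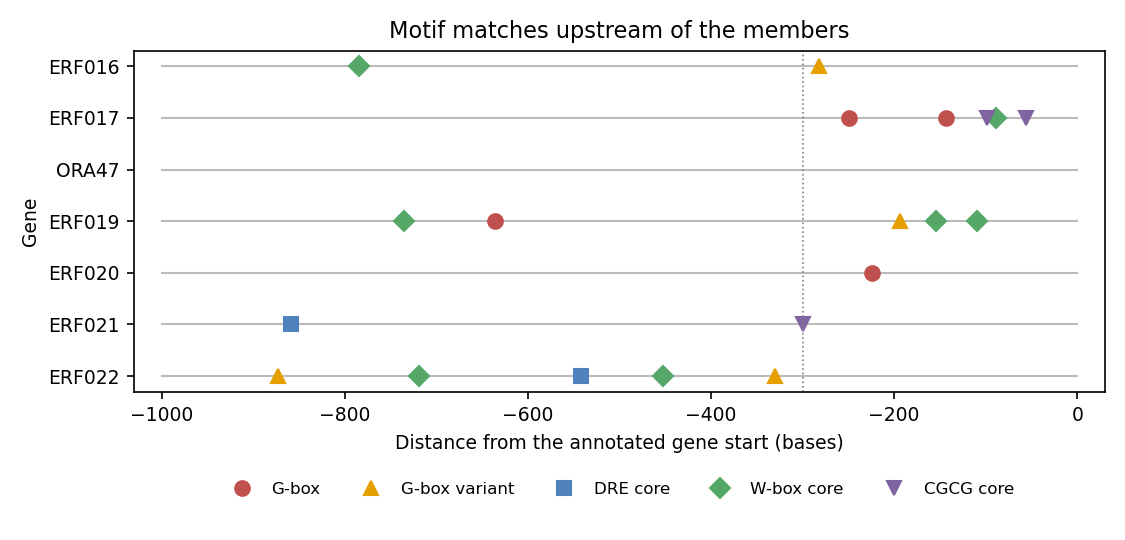
Positions of matches to the G-box, its variant, the dehydration-responsive core, the W-box form and the CGCG core in the 1000 bases before the annotated start of each of the 7 genes, by distance from the start in bases, with the dotted line at 300 bases. TATA box matches are not drawn, and the GCC-box had none. ORA47 has no match to the motifs drawn, and the G-box appears at 4 places, in ERF017 (2), ERF019 and ERF020.

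Genes with the most similar pattern over the 6 libraries were named by the root mean square difference of log2(CPM + 0.5), centred per gene. For ORA47 these were CSLA01 (0.177), SAG29 (0.260) and ERF109 (0.284). CSLA01 had 1.55, 1.65 and 1.56 CPM in the myc2 libraries, against 57.7, 59.3 and 66.9 CPM in the Col-0 libraries. For ERF016 they were AT2G44240 (0.0879), AT1G50750 (0.115) and AT4G29780 (0.122), and for ERF017 AT1G50750 (0.135), JAZ7 (0.157), which encodes a jasmonate repressor, and WRKY40 (0.165). For ERF022 they were AT4G29780 (0.144), WRKY40 (0.149) and JAZ7 (0.169). For ERF019 they were ERF8 (0.0501), ELIP2 (0.0713) and MSRB5 (0.0760), whose log2 fold changes of -1.24, -1.05 and -1.08 are far smaller than that of ERF019. The added 0.5 CPM lies above the myc2 level of ERF016, ERF017 and ERF019 and near that of ERF022, so their changes are compressed and genes with unlike folds can appear alike. AT2G44240, nearest to ERF016, had a log2 fold change of -8.24 beside -4.72 for ERF016, and AT1G50750, nearest to ERF017, had -4.42 beside -6.32 for ERF017. The libraries share genotype and run, so these likenesses rest on 2 groups of 3 libraries.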

How the data were processed

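Poly(A) RNA of myc2 and Col-0 shoots was made into libraries with a TruSeq RNA kit. The authors deposited 1 file of raw read counts per gene for each library, not normalized. The submitters' processing notes name fastp, HISAT2, SAMtools and StringTie with TAIR10. Tool versions, the program that counted reads, whether it used strand, and the release of the annotation are not stated in those sources. A further table of the authors' own comparison of the genotypes (fold changes and p-values) was not used.

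Counts were filtered with filterByExpr, scaled by TMM and tested in edgeR 4.0.16 (glmQLFit with robust dispersion, glmQLFTest) in R 4.3.3, fitting genotype alone, with Benjamini-Hochberg adjustment over 18961 genes; an adjusted p under 0.05 was called. Of 28775 genes, 23688 had a read. CPM used TMM effective library sizes. The SE of a log2 fold change is its absolute value divided by the square root of the F statistic of the test. For ERF016, ERF017, ERF019 and ERF022, with few reads in myc2, this SE is smaller than counting error alone would give. Calculations were tested on simulated data. limma 3.58.1 (limma-voom), DESeq2 1.42.0, other scalings and filters, a replicate block, Col-0 subsets and leaving out each library were the alternatives. No pair of replicates agreed within sampling noise.

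The members and all gene lists were chosen with earlier results of these data known. Subfamilies, gene models and sequences came from RefSeq TAIR10.1, whose nuclear chromosomes have the lengths of TAIR10, and 28009 of the files' genes have an entry there. "Family" means the genes its notes place in an ERF or DREB subfamily. Named genes were the 7 members, MYC2, the 3 genes of each list with the smallest adjusted p and the uncalled gene with the largest, and the 3 nearest profiles of each tested member. Levels between genes used annotated exon length.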

Additional observations from a re-analysis of the deposited data

How the results depend on the processing

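The members were chosen on this contrast, and ERF016, ERF017 and ERF019 would not have passed the filter without their Col-0 libraries. The 5 calls of members under the alternatives are therefore no sign of stability. The filter of 1 CPM in 3 libraries left out ERF019 and so gave 4. Over the alternatives the log2 fold change ran from -4.94 to -4.73 for ORA47, -4.80 to -4.68 for ERF016, -6.54 to -5.98 for ERF017, -4.46 to -3.64 for ERF019 and -4.91 to -4.61 for ERF022. The count of all genes called was 6889, with 5032 to 8417 when 1 library was left out, 6104 with DESeq2 and 6870 with limma-voom. Replicate numbers did not pair the libraries, since same-numbered libraries had correlations of -0.0181 to 0.0229 between their deviations, and a replicate block gave 6639 genes. Leaving out 1 library gave 1 to 3 other A-5 genes called higher, against 3 with all libraries, and 11 to 16 family genes called higher, against 17, with the lowest count without myc2 replicate 3. The causes were not tested. Of 359 alternatives for 24 named genes, 354 kept direction and side of the threshold. Most of these genes were named as members or for the smallest or largest adjusted p, so the count is no sign of stability. The 5 alternatives that turned direction were of genes not called. The log2 fold change of ERF014 was 0.028 with Col-0 replicate 3 as the only wild type. With 1 library left out, that of AT4G16750 ran from -0.027 without myc2 replicate 3 (-0.011 without Col-0 replicate 2) to 0.123, and that of ACX5 from -0.092 to 0.016 without Col-0 replicate 3. That of ACX5 was also 0.016 with Col-0 replicates 1 and 2 as the only wild type. Depth limits ERF019, with 3 reads in myc2, and leaves ERF020 and ERF021 without a usable comparison.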
